A study of Mus musculus with 6 samples.

Results

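Genes of the synaptic vesicle and of the mature excitatory synapse were followed in mouse dentate neuroepithelium, the part of the hippocampal wall from which the dentate gyrus forms, in tissue labelled embryonic day 14. The set holds 33 genes, chosen by symbol as vesicle, SNARE, active zone and postsynaptic genes, out of 35274 genes in the deposited table. All 33 were found, in 34 rows, because the symbol Rab3a has a second row that is listed at 0 TPM in every library and is left aside. All 33 had a mean of at least 1 TPM, the minimum for testing, so every member was tested. The 6 libraries come from 3 genotypes with 2 libraries each: homozygous for a floxed Sox11 allele (SOX11f/f, called homodeficient in the labels), heterozygous for it (SOX11f/+, called haplodeficient) and wild type (WT). The labels name no recombinase driver and do not say in which cells the allele was deleted. They also do not say whether each library is an embryo of its own, and p-values therefore measure only variation among 6 libraries, some or all of which may be technical. Values are TPM, which divide out transcript length and sum to 1000000 in a library, so that levels of different genes can be set side by side.

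A chemical synapse releases transmitter from vesicles that are filled by transporters, tethered by synapsins, docked at an active zone scaffold and fused by a SNARE complex under the control of synaptotagmin. On the receiving side of an excitatory synapse, Shank and Homer scaffolds and the calcium-calmodulin kinase CaMKII sit beneath the glutamate receptors. In rodent forebrain most of these genes are low in progenitors, begin in newborn neurons and climb steeply after birth as synapses form. Some families are known for a change of dominant member on the way: VGLUT2 (Slc17a6) comes before VGLUT1 (Slc17a7) in the cortex and hippocampus, and CaMKII beta (Camk2b) before CaMKII alpha (Camk2a).

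The regions just before the transcription starts are shown for the pair of vesicular glutamate transporters, whose balance is read in each library further on, and for Syn1, a gene often used as a neuronal marker. The sequences are those of RefSeq on GRCm38.p6, from 250 bases before to 50 bases after the start, on the coding strand. The windows are chr7:45163671-45163970 on the plus strand for Slc17a7, chr7:51621580-51621879 on the plus strand for the first of 2 listed starts of Slc17a6, and chrX:20920869-20921168 on the minus strand for Syn1. Capitals mark, on either strand, GGGCGG (a GC box), TGACGTCA (a cAMP response element), CAGCACC and GGACAG, the last 2 being the left and right parts of RE1, the element of the neuronal repressor REST.
Slc17a7: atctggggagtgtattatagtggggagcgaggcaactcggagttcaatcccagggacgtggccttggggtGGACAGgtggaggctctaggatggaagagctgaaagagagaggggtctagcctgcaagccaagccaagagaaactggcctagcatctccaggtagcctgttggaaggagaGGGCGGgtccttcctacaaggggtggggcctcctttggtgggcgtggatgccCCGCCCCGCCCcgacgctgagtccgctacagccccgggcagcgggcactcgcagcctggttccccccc
Slc17a6: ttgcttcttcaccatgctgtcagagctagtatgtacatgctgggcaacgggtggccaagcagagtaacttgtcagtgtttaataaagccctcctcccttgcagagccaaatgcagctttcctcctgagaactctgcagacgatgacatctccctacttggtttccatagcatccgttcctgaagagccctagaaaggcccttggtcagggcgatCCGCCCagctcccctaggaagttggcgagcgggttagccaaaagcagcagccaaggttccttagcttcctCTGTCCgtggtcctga
Syn1: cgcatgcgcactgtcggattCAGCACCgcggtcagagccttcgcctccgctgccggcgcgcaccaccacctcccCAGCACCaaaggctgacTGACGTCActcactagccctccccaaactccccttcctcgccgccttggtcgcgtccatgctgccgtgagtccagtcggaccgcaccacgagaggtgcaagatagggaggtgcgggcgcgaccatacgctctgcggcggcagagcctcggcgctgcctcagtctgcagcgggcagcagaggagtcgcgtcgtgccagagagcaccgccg
The Slc17a7 window held 3 GC boxes, of which 2 overlap by a base, and 1 right part of RE1. The Slc17a6 window held 1 of each. The Syn1 window held 2 left parts of RE1 and a cAMP response element, but no GC box. Promoter windows were found for 24 of the 33 members, 33 windows in all. A GC box was in 21 of these 33 windows (63.6%), against 35.7% of all 32851 windows. A cAMP response element was in 1 of the 33 (3.03%), against 1.79% of all windows. The left part of RE1 was in 3 of the 33 (9.09%), against 7.14% of all windows, and the right part in 9 (27.3%), against 22.2%. The RE1 core, made of the left part, any 2 bases and the right part, was in 0 of the 33 windows and in 0.0365% of all windows. These are exact matches of letters in a short window and say nothing of whether a factor binds there. Near matches were not counted. In the Syn1 window the first left part is followed after 2 bases by ggtcag, which differs from the right part by 1 letter.

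Synaptic genes were well expressed in every library. Their summed level was 4679 and 5573 TPM in homozygous, 3415 and 4942 TPM in heterozygous and 3853 and 4973 TPM in wild type libraries, or 0.341% to 0.557% of the TPM total. The lowest sum was that of heterozygous replicate 1, and the sums of the 3 genotypes overlapped. The median member stood between 70.8 TPM in heterozygous replicate 1 and 98.5 TPM in homozygous replicate 2, where the 90th percentile of expressed genes lay between 85.9 and 95.1 TPM over the 6 libraries. The members that stayed above the 90th percentile of expressed genes in all 6 libraries numbered 13, and those that stayed above the 50th numbered 29. The lowest rank of any member was percentile 29.1, for Syt2 in heterozygous replicate 1. Averaged over libraries, 16 members exceeded 100 TPM and 2 lay under 10 TPM.

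**Figure D1:**
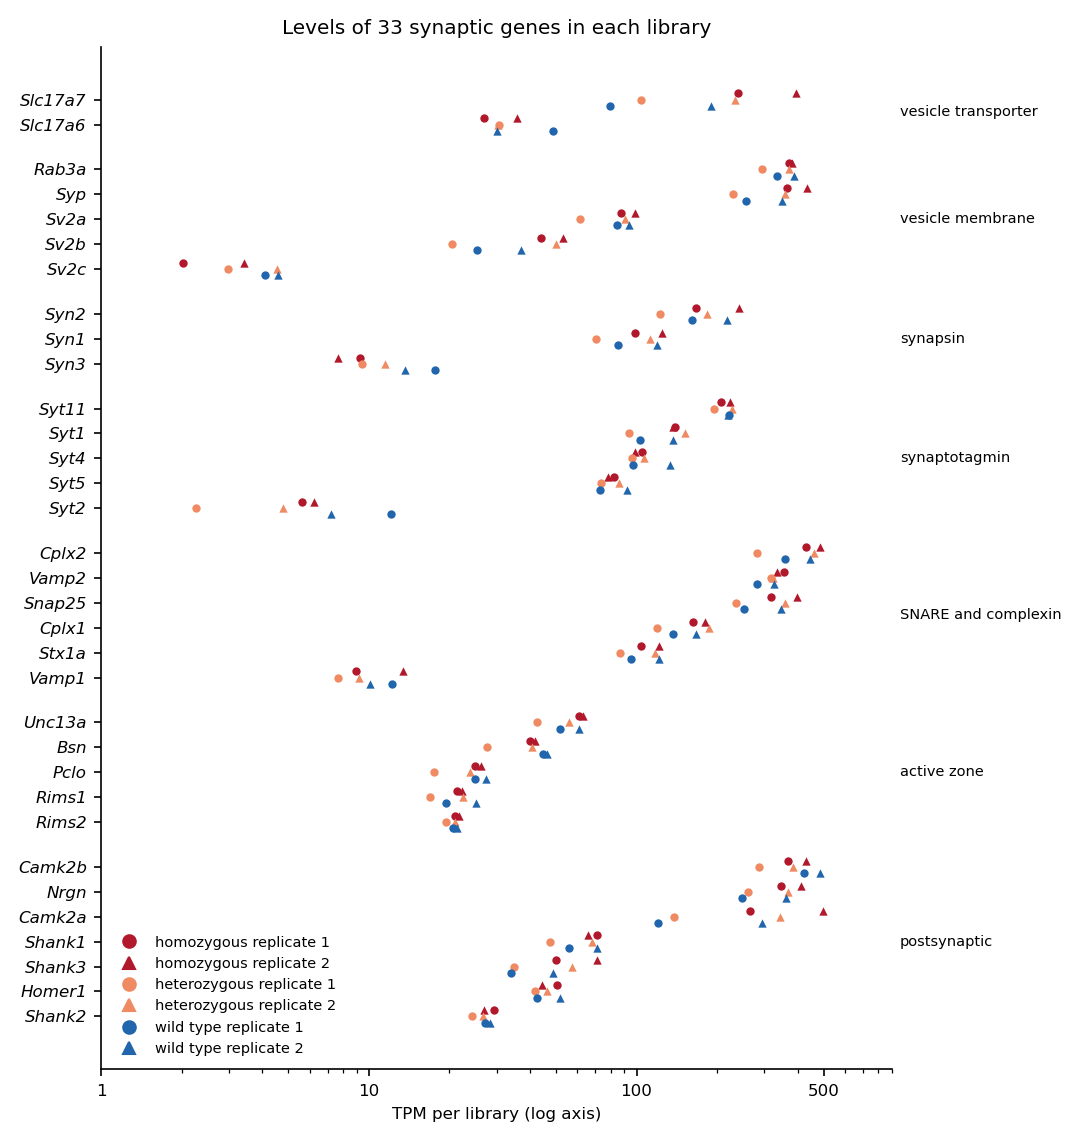
Levels of the 33 genes in each library, in TPM on a log axis, grouped by role; colours are genotypes and shapes are replicates. Camk2b, Cplx2 and Rab3a are among the highest and Sv2c is the lowest, the libraries of the 3 genotypes are interleaved for most genes, and Slc17a7 and Camk2a spread the most among the abundant ones.

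The vesicular glutamate transporters load glutamate into vesicles, and which one is used marks the kind and age of an excitatory neuron. Slc17a7 (ENSMUSG00000070570.5, chromosome 7 from 45163949 to 45176142 on the plus strand of GRCm38, GENCODE vM21) stood at 240.2 and 393 TPM in homozygous, 104 and 233 TPM in heterozygous and 79.8 and 189.6 TPM in wild type libraries. Both homozygous libraries were above both others, while the heterozygous and wild type libraries overlapped. The log2 fold change was 1.31 (SE 0.51, limma adjusted p = 0.25) for homozygous against wild type, 0.34 (SE 0.51, limma adjusted p = 0.78) for heterozygous against wild type and 0.97 (SE 0.51) for homozygous against heterozygous. The first of these missed the threshold of 0.05. When homozygous replicate 1 and heterozygous replicate 1, which hold the most RNA of the choroid plexus gene Ttr, were left out, it was 1.67 and passed (limma adjusted p = 0.031), where 3.38% of all genes passed. That fit has 1 library in each floxed genotype, so the 2 wild type libraries alone supply the spread and the single homozygous library is assumed to vary like them. Over all alternatives its limma adjusted p ran from 0.031 to 0.71. Leaving out wild type replicate 1 gave 0.69 and leaving out wild type replicate 2 gave 1.93 for homozygous against wild type. For heterozygous against wild type, the value turned to -0.28 without wild type replicate 1 and to -0.24 without heterozygous replicate 2, and was 0.96 without wild type replicate 2 and 0.92 without heterozygous replicate 1. For homozygous against heterozygous, it was 0.40 without heterozygous replicate 1, 0.62 without homozygous replicate 2 and 1.55 without heterozygous replicate 2. Slc17a6 (chromosome 7 from 51622006 to 51671119) stood at 27.0 and 35.9 TPM in homozygous, 30.7 and 30.3 TPM in heterozygous and 48.8 and 30.0 TPM in wild type libraries, and its genotypes overlapped. Within a library, Slc17a7 made up 89.9% and 91.6% of the sum of both transporters in homozygous, 77.2% and 88.5% in heterozygous and 62.1% and 86.3% in wild type libraries. VGLUT1 was thus the more abundant transporter in all 6 libraries, and its lowest share was that of wild type replicate 1. No test of the share was run, and an exact two-sided permutation test of 2 against 2 libraries cannot go below 0.333.

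Of the genes for vesicle membrane proteins, Syp and Rab3a were among the most abundant members. Syp, synaptophysin, stood at 366 and 432 TPM in homozygous, 229 and 360.1 TPM in heterozygous and 257 and 348 TPM in wild type libraries. The homozygous libraries were above the other 4, with a log2 fold change of 0.41 against wild type (SE 0.24, limma adjusted p = 0.39), which did not pass. Rab3a, a small GTPase of the vesicle surface, stood at 372 and 383 TPM in homozygous, 294 and 370.3 TPM in heterozygous and 336 and 388 TPM in wild type libraries. Homozygous libraries lay above both heterozygous ones but inside the range of wild type. Sv2a, the main vesicle glycoprotein of the SV2 family, stood at 87.8 and 98.5 TPM in homozygous, 61.4 and 90.9 TPM in heterozygous and 84.6 and 93.35 TPM in wild type libraries, and all 3 genotypes overlapped. Its paralog Sv2b stood lower, between 20.4 and 53.1 TPM, with both homozygous libraries above wild type (log2 fold change 0.64, SE 0.39, limma adjusted p = 0.41). Sv2c, the SV2 member known mostly from the basal ganglia, stood at 2.02 and 3.42 TPM in homozygous, 2.97 and 4.52 TPM in heterozygous and 4.10 and 4.58 TPM in wild type libraries. It was the lowest member on average. Its homozygous libraries were below wild type (log2 fold change -0.55, SE 0.28, limma adjusted p = 0.35), which did not pass. Of the SV2 sum, Sv2b took 32.8% and 34.3% in homozygous, 24.1% and 34.5% in heterozygous and 22.3% and 27.4% in wild type libraries. Sv2a took the largest share in each library.

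Synapsins tether vesicles to one another and to actin. Syn2 stood at 167 and 243 TPM in homozygous, 122 and 183 TPM in heterozygous and 161 and 219 TPM in wild type libraries. Syn1 stood at 98.9 and 124 TPM in homozygous, 70.8 and 112 TPM in heterozygous and 85.6 and 119.8 TPM in wild type libraries. For both genes all genotypes overlapped, and heterozygous replicate 1 was the lowest library. Syn3, the synapsin known to come early in developing neurons, stood at 9.27 and 7.65 TPM in homozygous, 9.41 and 11.5 TPM in heterozygous and 17.6 and 13.6 TPM in wild type libraries. The 3 genotypes did not overlap, with wild type highest and homozygous lowest. Against wild type, the Syn3 log2 fold change was -0.81 in homozygous libraries (SE 0.20, limma adjusted p = 0.13, the smallest of any member there) and -0.53 in heterozygous ones (SE 0.20, limma adjusted p = 0.33). Neither passed. Syn3 made up 3.37% and 2.04% of the synapsin sum in homozygous, 4.65% and 3.74% in heterozygous and 6.68% and 3.87% in wild type libraries, and the shares of heterozygous and wild type libraries overlapped.

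Synaptotagmins are vesicle proteins, some of which sense calcium and trigger fusion. Syt1, the fast calcium sensor of forebrain neurons, stood at 139.8 and 137.3 TPM in homozygous, 94.1 and 151 TPM in heterozygous and 103 and 136.9 TPM in wild type libraries. The homozygous libraries were just above wild type and inside the range of heterozygous ones. Syt11, a synaptotagmin that does not sense calcium, stood at 207 and 224 TPM in homozygous, 195 and 228 TPM in heterozygous and 221 and 219 TPM in wild type libraries, and was among the steadiest members. Syt4, which is found on dense-core vesicles, stood at 105 and 98.5 TPM in homozygous, 96.5 and 106 TPM in heterozygous and 96.7 and 133 TPM in wild type libraries. Syt5 stood at 82.5 and 78.3 TPM in homozygous, 74.0 and 86.2 TPM in heterozygous and 73.2 and 92.4 TPM in wild type libraries. For Syt4, Syt5 and Syt11 the genotypes overlapped. Syt2, the fast sensor of hindbrain and some inhibitory neurons, stood at 5.62 and 6.23 TPM in homozygous, 2.25 and 4.78 TPM in heterozygous and 12.1 and 7.19 TPM in wild type libraries. The genotypes did not overlap, with heterozygous lowest and wild type highest. Syt2 had the largest member difference of heterozygous against wild type, at -1.26 (SE 0.34, limma adjusted p = 0.27), and stood at -0.58 in homozygous against wild type (SE 0.34, limma adjusted p = 0.40). Neither passed the threshold.

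The SNARE proteins pull vesicle and plasma membrane together, and complexins clamp and assist them. Snap25 stood at 318 and 398 TPM in homozygous, 234 and 360.0 TPM in heterozygous and 251 and 347 TPM in wild type libraries. Vamp2, the vesicle SNARE of most forebrain synapses, stood at 355 and 335 TPM in homozygous, 318 and 325 TPM in heterozygous and 282 and 327 TPM in wild type libraries. Stx1a, a plasma membrane SNARE, stood at 104 and 121 TPM in homozygous, 86.8 and 118 TPM in heterozygous and 95.2 and 122 TPM in wild type libraries. The genotypes overlapped for Snap25 and Stx1a, while homozygous libraries were above all others for Vamp2 (log2 fold change 0.18 against wild type, SE 0.10, limma adjusted p = 0.37). Vamp1, the paralog used mostly in spinal cord and brainstem, stood at 8.91 and 13.4 TPM in homozygous, 7.65 and 9.14 TPM in heterozygous and 12.2 and 10.1 TPM in wild type libraries. It made up 2.35% to 4.14% of the sum of Vamp1 and Vamp2 over the 6 libraries. Cplx2, the complexin of excitatory forebrain neurons, stood at 429 and 486 TPM in homozygous, 283 and 459 TPM in heterozygous and 359 and 446 TPM in wild type libraries. Cplx1 stood at 162 and 180.4 TPM in homozygous, 119 and 187 TPM in heterozygous and 137 and 167 TPM in wild type libraries. Cplx2 was above Cplx1 in every library, and the genotypes overlapped for both.

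Active zone genes were the lowest group per gene, the 5 of them summing to 168 and 175.5 TPM in homozygous, 124 and 164 TPM in heterozygous and 161 and 181.5 TPM in wild type libraries. Unc13a (Munc13-1), which primes vesicles, stood at 60.7 and 63.4 TPM in homozygous, 42.5 and 55.8 TPM in heterozygous and 51.6 and 61.0 TPM in wild type libraries. Bsn, the scaffold bassoon, stood at 40.0 and 41.9 TPM in homozygous, 27.5 and 40.8 TPM in heterozygous and 44.8 and 46.5 TPM in wild type libraries. Pclo, its relative piccolo, stood at 24.86 and 26.25 TPM in homozygous, 17.5 and 23.8 TPM in heterozygous and 24.98 and 27.46 TPM in wild type libraries. The libraries of both floxed genotypes were below wild type for Bsn, and those of the heterozygous genotype for Pclo. For heterozygous against wild type, Bsn differed by -0.43 (SE 0.18, limma adjusted p = 0.36) and Pclo by -0.34 (SE 0.17, limma adjusted p = 0.40), and neither passed. Rims1 and Rims2, which link vesicles to calcium channels, stood between 16.9 and 25.2 TPM and between 19.4 and 21.7 TPM. Rims2 was the steadiest member of all, with a highest library 1.12 times its lowest.

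The postsynaptic members include both main subunits of CaMKII. Camk2a, the kinase subunit that dominates mature excitatory synapses, stood at 266 and 496 TPM in homozygous, 138 and 343 TPM in heterozygous and 121 and 295 TPM in wild type libraries. The genotypes overlapped, and replicate 2 was the higher library in each of them. The log2 fold change of Camk2a was 0.94 for homozygous against wild type (SE 0.56, limma adjusted p = 0.40) and 0.21 for heterozygous against wild type (SE 0.56, limma adjusted p = 0.88). The first was 0.30 without wild type replicate 1, 0.49 without homozygous replicate 2 and 1.58 without wild type replicate 2. The second turned to -0.43 without wild type replicate 1 and to -0.44 without heterozygous replicate 2, and was 0.85 without wild type replicate 2 and 0.86 without heterozygous replicate 1. Camk2b stood at 368 and 432 TPM in homozygous, 287 and 385 TPM in heterozygous and 421 and 484 TPM in wild type libraries. Both heterozygous libraries were below wild type, with a log2 fold change of -0.44 (SE 0.16, limma adjusted p = 0.33) that did not pass. Camk2a made up 41.9% and 53.5% of the sum of both subunits in homozygous, 32.5% and 47.1% in heterozygous and 22.3% and 37.9% in wild type libraries. Homozygous shares were above both wild type ones, and Camk2a exceeded Camk2b only in homozygous replicate 2. The ratio of Camk2a to Camk2b was 0.722 and 1.149 in homozygous, 0.482 and 0.892 in heterozygous and 0.286 and 0.609 in wild type libraries.

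**Figure D2:**
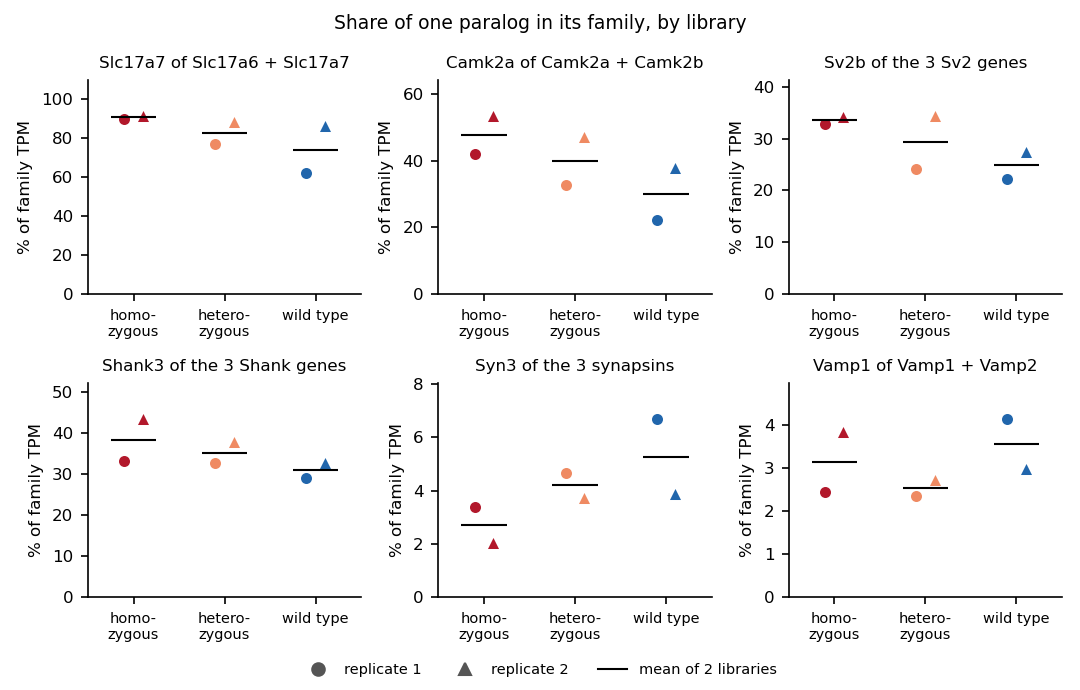
Share of 1 paralog in the summed TPM of its family, in percent, for each library; each axis starts at 0 and the line is the mean of 2 libraries. The Slc17a7 share runs from 62.1% to 91.6% and the Camk2a share from 22.3% to 53.5%, both lowest in wild type replicate 1 and highest in homozygous replicate 2.

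Nrgn, neurogranin, a calmodulin-binding protein of dendritic spines, stood at 346 and 411 TPM in homozygous, 261 and 369 TPM in heterozygous and 248 and 362 TPM in wild type libraries. The Shank scaffolds were less abundant. Shank1 stood at 71.3 and 65.9 TPM in homozygous, 47.5 and 68.1 TPM in heterozygous and 56.1 and 71.1 TPM in wild type libraries. Shank3 stood at 49.9 and 71.1 TPM in homozygous, 34.9 and 57.5 TPM in heterozygous and 34.1 and 48.7 TPM in wild type libraries. For Nrgn and Shank1 the genotypes overlapped, and for Shank3 both homozygous libraries were above wild type (log2 fold change 0.54, SE 0.29, limma adjusted p = 0.36). Shank2 lay between 24.4 and 29.5 TPM and Homer1, which links Shank to metabotropic glutamate receptors, between 41.8 and 51.7 TPM. Shank3 took 33.1% and 43.4% of the Shank sum in homozygous, 32.7% and 37.8% in heterozygous and 29.1% and 32.8% in wild type libraries.

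In the comparison of homozygous with wild type libraries, 0 of 33 members passed the threshold (limma with Benjamini-Hochberg adjustment over 14518 genes; 0.0413% of all genes passed). At an unadjusted p of 0.05, 2 members passed (6.06%), Syn3 lower and Slc17a7 higher, against 18.1% of all genes. Of the members, 21 had a log2 fold change above 0 and 12 below, with a median of 0.065, where the median over all genes was -0.036 and 44.8% of genes were above 0. Under TMM rescaling the split was 26 above and 7 below. Libraries did not overlap for 10 members (30.3%), against 54.3% of all genes. Of these members 6 were higher and 4 lower, against 23.6% and 30.7% of all genes. The 6 were Slc17a7, Syp, Sv2b, Syt1, Vamp2 and Shank3, and the 4 were Sv2c, Syn3, Syt2 and Bsn. The median turned to -0.017 without wild type replicate 1 (14 above and 19 below), was 0.0056 without homozygous replicate 2 and was 0.17 without wild type replicate 2.

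Heterozygous against wild type libraries also gave 0 of 33 members past the threshold (limma, 0.0344% of all genes passed). An unadjusted p of 0.05 was passed by 4 members (12.1%), Syt2, Camk2b, Syn3 and Bsn, all lower, against 14.1% of all genes. Of the members, 7 were above 0 and 26 below, with a median of -0.13, where the median over all genes was -0.061 and 59.8% of genes were below 0. Under TMM rescaling the split was 13 above and 20 below. The libraries did not overlap for 7 members (21.2%), against 46.0% of all genes. All 7 were lower, and 28.9% of all genes were lower and 17.1% higher without overlap. They were Syt2, Syn3, Camk2b, Bsn, Pclo, Vamp1 and Shank2. The median was 0.049 without heterozygous replicate 1 (21 above and 12 below), 0.0058 without wild type replicate 2, -0.27 without wild type replicate 1 and -0.37 without heterozygous replicate 2, so its direction depended on single libraries. This comparison shares its wild type libraries with the one before.

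For homozygous against heterozygous libraries, 0 of 33 members passed (limma, 0.0138% of all genes passed) and 0 had an unadjusted p under 0.05, against 2.05% of all genes. The limma adjusted p was 0.9999 for each member. Of the members, 31 were above 0 and 2, Syn3 and Sv2c, below, with a median of 0.26, where the median over all genes was 0.014 and 54.1% of genes were above 0. The libraries did not overlap for 9 members (27.3%), against 29.1% of all genes. Of these, Slc17a7, Syp, Rab3a, Syt2, Vamp2, Unc13a, Pclo and Shank2 (8) were higher and Syn3 (1) lower, against 15.3% and 13.7% of all genes. The median was 0.028 without heterozygous replicate 1 (20 above and 13 below) and 0.52 without heterozygous replicate 2, so that its size rested mostly on heterozygous replicate 1. Heterozygous replicate 1 was the lowest of the 6 libraries for 24 of the 33 members, and it also held 11259 TPM of Ttr, against 6421 and 184 TPM in homozygous libraries, 4.44 TPM in heterozygous replicate 2 and 3.07 and 2.04 TPM in wild type libraries. The part of choroid plexus RNA in these differences was not tested.

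**Figure D3:**
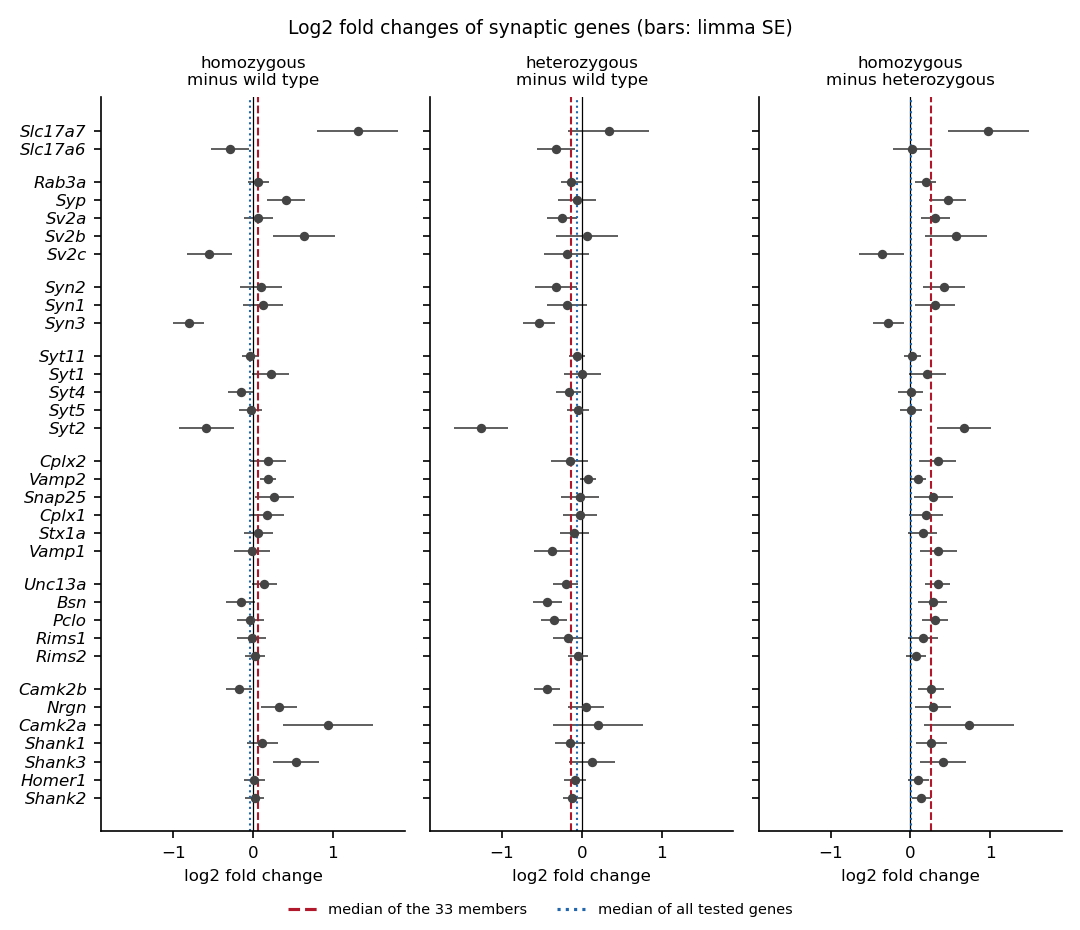
Log2 fold changes of the 33 genes on the log2(TPM + 1) scale in 3 comparisons, with limma SE as bars. The dashed line is the median of the members (0.065, -0.13 and 0.26) and the dotted line that of all genes tested (-0.036, -0.061 and 0.014), and 0 members pass an adjusted p of 0.05.

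Most members differed in the same direction between the 2 libraries of a genotype. Replicate 2 exceeded replicate 1 for 25 of 33 members in homozygous, 32 in heterozygous and 28 in wild type libraries, against 50.8%, 39.8% and 30.0% of all genes. The median member difference, replicate 2 minus replicate 1, was 0.15 in homozygous, 0.48 in heterozygous and 0.28 in wild type libraries on the log2(TPM + 1) scale, where the medians over all genes were 0.0042, -0.062 and -0.12. Over the 6 libraries, 7 members varied by more than 2-fold and 11 by less than 1.5-fold. The most variable were Syt2 (5.40-fold), Slc17a7 (4.92-fold), Camk2a (4.11-fold), Sv2b (2.60-fold), Syn3 (2.31-fold), Sv2c (2.27-fold) and Shank3 (2.09-fold), of which only Slc17a7 and Camk2a exceeded 100 TPM on average. The highest library was homozygous replicate 2 for 14 members and wild type replicate 2 for 10.

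Genes of the same synaptic machinery outside the set were read from 2 further lists. None of 39 tested presynaptic genes and none of 30 postsynaptic genes passed in any of the 3 comparisons (limma). Of the presynaptic list, 1, 3 and 2 genes had an unadjusted p under 0.05 in homozygous against wild type, heterozygous against wild type and homozygous against heterozygous libraries, and of the postsynaptic list 5, 2 and 2, where the shares of all genes were 18.1%, 14.1% and 2.05%. Among the presynaptic genes, Snap91 and Amph, which act in vesicle endocytosis, lay between 125 and 185 TPM and between 112 and 162 TPM. Dlg4 (PSD-95), the central scaffold of the excitatory synapse, stood at 242 and 247 TPM in homozygous, 180.5 and 226 TPM in heterozygous and 155 and 187 TPM in wild type libraries, and both homozygous libraries were above the other 4. The summed level of the presynaptic list was 3409 and 3638 TPM in homozygous, 2606 and 3590 TPM in heterozygous and 2827 and 3615 TPM in wild type libraries. That of the postsynaptic list was 2404 and 2543 TPM in homozygous, 1870 and 2403 TPM in heterozygous and 1986 and 2388 TPM in wild type libraries. Both sums were lowest in heterozygous replicate 1, as for the members.

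The members stood beside genes of immature neurons, of mature neurons and of glia in the same libraries. Immature neuron genes summed to 11606 and 10652 TPM in homozygous, 13170 and 13134 TPM in heterozygous and 15910 and 16399 TPM in wild type libraries, and the 3 genotypes did not overlap. Of the 20 genes, 19 were below wild type in homozygous and in heterozygous libraries alike, with medians of -0.50 and -0.31 on the log2 scale and 0 past the threshold (limma), 14 and 7 having an unadjusted p under 0.05, against 18.1% and 14.1% of all genes. Tubb3, the neuronal tubulin, stood at 1003 and 965 TPM in homozygous, 1227 and 1274 TPM in heterozygous and 1471 and 1728 TPM in wild type libraries. Tubb2b, Stmn1 and Marcksl1, the other 3 most abundant, were likewise lower in homozygous than in wild type libraries without overlap. Mature neuron genes, by contrast, summed to 3896 and 4496 TPM in homozygous, 2941 and 4210 TPM in heterozygous and 3001 and 4016 TPM in wild type libraries. Of these 20 genes, 16 were above wild type in homozygous and 13 in heterozygous libraries, with medians of 0.29 and 0.08 and 0 past the threshold (limma), 1 and 2 having an unadjusted p under 0.05, beside the same shares of all genes. Hpca, the hippocampal calcium sensor hippocalcin, stood at 364 and 423 TPM in homozygous, 207 and 393 TPM in heterozygous and 149.5 and 335 TPM in wild type libraries. Calm3 lay between 974 and 1418 TPM and Olfm1 between 292 and 483 TPM.

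**Figure D4:**
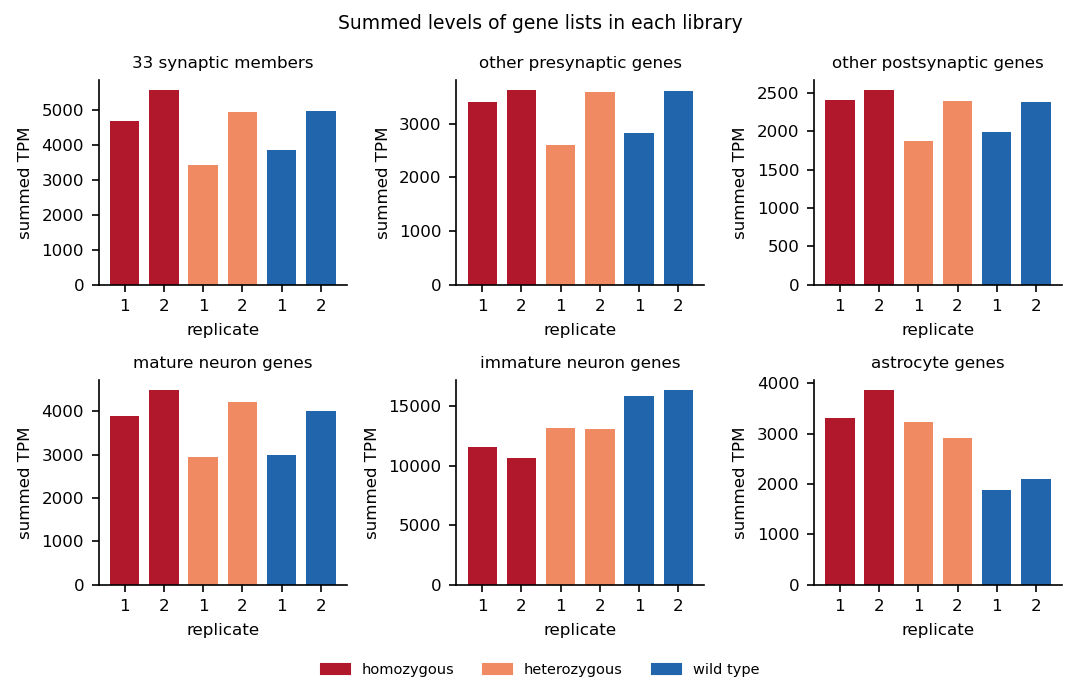
Summed TPM of the 33 members and of 5 other gene lists in each library, with homozygous, heterozygous and wild type libraries from left to right. Synaptic and mature neuron sums are lowest in heterozygous replicate 1 and wild type replicate 1, immature neuron sums run between 10652 and 16399 TPM with wild type highest, and astrocyte sums are lowest in wild type.

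Set against the immature neuron gene Dcx, chosen after its values were seen, Camk2a stood at a ratio of 1.13 and 2.64 in homozygous, 0.488 and 1.16 in heterozygous and 0.311 and 0.754 in wild type libraries. Slc17a7 stood at 1.02 and 2.09 times Dcx in homozygous, 0.367 and 0.789 times in heterozygous and 0.206 and 0.485 times in wild type libraries. Both homozygous libraries were above both wild type ones for the 2 ratios, while the heterozygous and wild type libraries overlapped. Dcx itself stood at 236 and 188 TPM in homozygous, 284 and 296 TPM in heterozygous and 388 and 391 TPM in wild type libraries. Its genotypes did not overlap, with wild type highest, whereas those of Camk2a overlapped. The order of these ratios therefore holds the lower Dcx of the floxed genotypes as well as any change of Camk2a or Slc17a7. The log2 fold change of Dcx for homozygous against wild type was -0.89 (SE 0.12, limma adjusted p = 0.061), which did not pass. In tissue of mixed cells, fewer cells of a type and less RNA per cell cannot be told apart.

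Other markers of a maturing brain were read as well, some of them chosen after their values were seen. Gfap, the filament of astrocytes, stood at 345 and 576 TPM in homozygous, 352 and 335 TPM in heterozygous and 304 and 268 TPM in wild type libraries. The myelin gene Mbp stood at 17.5 and 76.2 TPM in homozygous, 15.3 and 25.2 TPM in heterozygous and 13.9 and 35.7 TPM in wild type libraries. The library with the most Mbp and Gfap, homozygous replicate 2, also had the most Camk2a and Slc17a7. Mog, a late myelin gene, stood at 2.03 TPM or less in each library. Progenitor genes were present in the same libraries. All 14 summed to 3548 and 3641 TPM in homozygous, 4200 and 3752 TPM in heterozygous and 3556 and 3347 TPM in wild type libraries. Of these genes, 5 were above and 9 below wild type, in homozygous and in heterozygous libraries alike. Over all genes, 44.8% and 40.2% were above wild type. Mki67, a marker of cycling cells, stood at 16.9 and 18.5 TPM in homozygous, 23.4 and 20.5 TPM in heterozygous and 38.9 and 21.5 TPM in wild type libraries, and Eomes, a marker of intermediate progenitors, at 39.7 and 54.2 TPM in homozygous, 50.5 and 53.2 TPM in heterozygous and 90.05 and 52.57 TPM in wild type libraries. Hbb-y, a globin of the primitive red cells of the embryo, was listed at 0 in all 6 libraries and Hba-x, another, in 5 of them, with 0.13 TPM in wild type replicate 1. The later globins Hba-a1 and Hbb-bs stood between 198 and 343 TPM and between 20.6 and 119 TPM. Both VGLUT1 and CaMKII alpha, which as background climb after birth, were well above 0 in tissue labelled embryonic day 14, beside astrocyte and myelin transcripts. The stage itself was not tested.

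Sox11 stood at 5.23 and 5.06 TPM in homozygous, 56.1 and 50.1 TPM in heterozygous and 192 and 130.2 TPM in wild type libraries, in the order of the labelled genotypes. Between 18722 and 19408 genes per library were above 0 TPM. Depth cannot be read from TPM values, and no counting interval was computed. Markers of other cell types were read in the same libraries. Astrocyte genes summed to 3318 and 3874 TPM in homozygous, 3226 and 2924 TPM in heterozygous and 1878 and 2105 TPM in wild type libraries, with 10 and 9 of 10 genes above wild type in homozygous and heterozygous libraries and 0 past the threshold (limma). Microglia genes summed to 412 and 432 TPM in homozygous, 512 and 338 TPM in heterozygous and 215 and 251 TPM in wild type libraries, with 10 of 10 above wild type in both floxed genotypes and 0 past the threshold (limma). Over all tested genes, 44.8% were above wild type in homozygous and 40.2% in heterozygous libraries. Choroid plexus and ependymal genes summed to 6860 and 387 TPM in homozygous, 11842 and 111 TPM in heterozygous and 9.47 and 8.50 TPM in wild type libraries. Of these 10 genes, 2, Ccdc153 and Tmem212, rose in both floxed genotypes against wild type (limma adjusted p from 0.0018 to 0.012). The shares of all genes past the threshold were 0.0413% in homozygous and 0.0344% in heterozygous against wild type libraries. The part of these cells in the synaptic values was not tested.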

How the data were processed

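RNA of dissected mouse dentate neuroepithelium was sequenced from 6 libraries, grouped by the genotype in their titles. The authors deposited TPM values for 35274 genes, each given by Ensembl identifier and symbol, and these were used as they stand. Per the labels' design text, poly(A) RNA was made into TruSeq libraries for paired-end reads on a HiSeq 2500, with TopHat 2.0.11 as the aligner to mm10, Cufflinks 2.2.1 as the quantifier and RefSeq as the annotation. RSEM and FastQC are the tools in the submitters' processing notes, beside both mm10 and GRCm38, and the tool behind the TPM values is therefore not settled. TPM values share a fixed total, so a very abundant transcript lowers all others, and depth is unknown. Identifiers, without version, were looked up in GENCODE vM21 (GRCm38) for gene positions.

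Values were used as log2(TPM + 1), which understates the change of low genes. The 14518 genes that averaged 1 TPM or more were fitted with limma 3.58.1 (R 4.3.3, eBayes with a trend on mean level) over all 6 libraries by genotype, which leaves 3 residual degrees of freedom. P-values were adjusted over all of these genes by Benjamini-Hochberg, with a threshold of 0.05. Adjusted p-values come from this fit or from the alternative fit named beside them. The fit was also run on simulated data as a check of the code, and its recovery of small changes is not reported here. SE are those of limma. Alternatives were another pseudocount, other filters, a trimmed-mean (TMM) rescaling without weights, eBayes without a trend, a replicate block, fewer genotypes and fewer libraries. Where a symbol of a list had several rows, the one with the highest mean was used.

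Members, lists and tests were chosen with earlier results of these data known. All members are named. Values per library are given for members averaging 50 TPM or more and for the 6 with the smallest p in each comparison, and from each of the 12 other lists up to 4 genes of the highest mean TPM, of which some are not reported here; Slc17a6, Ccdc153, Tmem212, Dcx, Mbp, Mog, Mki67, Eomes, Hbb-y, Hba-x and the inhibitory genes Gad1, Gad2 and Slc32a1 were given per library or singled out after their values were seen. No set test was run.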

Additional observations from a re-analysis of the deposited data

How the results depend on the processing

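The count of 0 members past the threshold held in all 3 comparisons under another pseudocount, other filters, TMM rescaling, eBayes without a trend, the 2 genotypes alone and each library left out in turn. It changed in homozygous against wild type libraries alone, where it was 2 with the replicate block, Slc17a7 (limma adjusted p = 0.032) and Camk2a (0.038), where 1.95% of all genes passed against 0.0413% without the block, and 1 (Slc17a7) when the 2 libraries of highest Ttr were dropped, where 3.38% of all genes passed and wild type alone supplies the spread, the floxed genotypes having 1 library each. The causes were not tested. With the block, counts over all genes were 283, 9 and 2 for homozygous against wild type, heterozygous against wild type and homozygous against heterozygous libraries, against 6, 5 and 2. In homozygous against wild type libraries the count over all genes was also 149 with a pseudocount of 0.1, 3 with no filter, 393 with the 2 genotypes alone, 491 without the 2 libraries of highest Ttr and 3 to 397 with 1 library left out, the highest being 391 and 397 without heterozygous replicate 1 and 2. In heterozygous against wild type libraries it was 49, 1, 6, 152 and 3 to 397 under the same settings, with 397 without heterozygous replicate 2 and 25 without heterozygous replicate 1. In homozygous against heterozygous libraries it was 2, 1, 2, 12 and 1 to 5, with 5 without homozygous replicate 2, and 1 under eBayes without a trend. The labels do not say that a replicate number marks a shared embryo, litter or day, and the numbers did not pair the libraries by correlation in every pair of genotypes: differences between replicates 2 and 1 correlated across genes at r = -0.088 between homozygous and wild type, 0.212 between heterozygous and wild type and 0.345 between homozygous and heterozygous libraries. Leaving out libraries moved the member median from -0.017 to 0.17, from -0.37 to 0.049 and from 0.028 to 0.52 in these 3 comparisons, and TMM rescaling gave 0.12, -0.060 and 0.25. Of 1383 single-gene values under alternatives, 122 changed sign, none of them past the threshold. Each genotype mean rests on 2 libraries, and with depth unknown no counting error can be given for low members such as Sv2c and Syt2.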

Other observations

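Inhibitory synapses fill their vesicles through Slc32a1, the GABA and glycine transporter, which stood at 29.5 and 21.5 TPM in homozygous, 22.95 and 30.44 TPM in heterozygous and 20.9 and 25.9 TPM in wild type libraries. It was below Slc17a7 in every library and overlapped between genotypes. Gad1 and Gad2, which make GABA, stood between 51.7 and 79.5 TPM and between 12.8 and 19.1 TPM. The inhibitory list, which also holds Sst, Npy and Dlx1, summed to 713 and 537 TPM in homozygous, 648 and 784 TPM in heterozygous and 653 and 711 TPM in wild type libraries. None of its 12 tested genes passed in any comparison, and 0 had an unadjusted p under 0.05 (limma).

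The remaining lists gave 0 genes past the threshold in each comparison (limma). In homozygous and heterozygous against wild type libraries, 4 and 2 of 14 progenitor genes, 4 and 4 of 10 astrocyte genes, 4 and 5 of 10 oligodendrocyte and myelin genes, 8 and 8 of 10 microglia genes, 1 and 1 of 8 endothelial genes and 0 and 1 of 5 erythroid genes had an unadjusted p under 0.05, against 18.1% and 14.1% of all genes. Of the oligodendrocyte list, Olig1, a factor of the lineage, stood at 161 and 165 TPM in homozygous, 165 and 166 TPM in heterozygous and 75.8 and 119 TPM in wild type libraries, with both floxed genotypes above wild type.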
